A study of Mus musculus with 6 samples.

Results

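The myosin, troponin and tropomyosin genes build the contractile apparatus of muscle and, in part, the actomyosin network of every other cell. They were examined in RNA from the marrow of tibiae and femora of mice aged 3 weeks on a mixed 129/C57BL/6 background, 3 wild-type animals and 3 animals without functional Cbx2 (Cbx2-/-). Wild-type animals weighed 12.3 g and Cbx2-/- animals 4.0 g on average, and the sources used here give neither the sex of the animals nor the nature of the Cbx2 allele. Members were taken by name, as every gene called Myh, Myl, Tnnc, Tnni, Tnnt or Tpm followed by a digit, or Mylpf, which gave 39 of the 22838 genes in the deposited table. They were sorted by the tissue each gene is best known from into 9 fast skeletal, 2 developmental skeletal, 7 slow skeletal, 5 cardiac, 2 smooth muscle and 7 non-muscle genes, 4 tropomyosin genes and 3 others.

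In striated muscle, myosin heavy chains (Myh) with their essential and regulatory light chains (Myl) form the thick filament motor. Troponin C, I and T (Tnnc, Tnni, Tnnt) sit with tropomyosin (Tpm) on the thin actin filament and switch contraction on when calcium binds. Fast fibres use a set of these genes that differs from that of slow and cardiac muscle, which share several members, whereas smooth muscle and non-muscle cells have no troponin and are switched on by phosphorylation of the regulatory light chain. Blood cells, platelets among them, contain non-muscle myosin and short tropomyosins but no sarcomeres.

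Values are FPKM (fragments normalised to transcript length and sequencing depth), so levels can be compared between genes per length. Differences between genotypes are Cbx2-/- minus wild-type means of log2(FPKM + 1), a scale that understates the change of low genes, with a Benjamini-Hochberg adjusted p from limma over the 12006 genes that reached 1 FPKM in 3 or more libraries. A gene was called when the adjusted p was under 0.05. The summed FPKM of a library lay between 599601 and 741192 and 16140 to 16574 genes were above 0; the sources used here do not give total reads. Cbx2 itself was at 2.9, 3.83 and 2.75 FPKM in wild-type and at 2.11, 1.87 and 1.88 FPKM in Cbx2-/- marrow (adjusted p = 0.0558 by limma). In whole marrow, fewer cells of a type and less RNA per cell cannot be told apart.

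The Cbx2-/- libraries differed among themselves in skeletal muscle transcripts, and this touches most fast skeletal members. The 22 skeletal muscle markers that are not members summed to 14.3, 14.7 and 18.7 FPKM in wild-type replicates 1, 2 and 3, to 273 and 298 FPKM in Cbx2-/- replicates 1 and 2, and to 12.3 FPKM in Cbx2-/- replicate 3. In 21 of these 22 genes both Cbx2-/- replicates 1 and 2 were above all 4 other libraries. The same held in 6 of 9 neutrophil markers and in 0 of 13 erythroid and 0 of 12 osteoblast markers. It was not counted over all genes. Skeletal actin (Acta1) was at 79.1, 133 and 1.89 FPKM in the Cbx2-/- libraries and at 0.804 to 1.48 FPKM in wild-type, and muscle creatine kinase (Ckm) at 73.5, 50.8 and 0.46 FPKM against 0.383 to 1.66 FPKM. The muscle determination genes Myod1, Myf5 and Myf6 did not exceed 0.146 FPKM in any library, and Myog was listed at 0 in all 6.

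Of the 39 members, 20 passed the filter on low values and were tested. Another 7 reached 1 FPKM in 1 or 2 libraries (Myh1, Myh2, Myh4, Myl1, Myl3, Myl10 and Myh11), and 12 stayed under 1 FPKM everywhere (Myh3, Myh6, Myh7, Myh7b, Myh8, Myh13, Myh14, Myh15, Myl7, Tnni1, Tnnt2 and Tnni3k, a kinase gene that shares only the troponin name). In the limma fit, 2 of the 20 tested members were lower and 0 higher in Cbx2-/- marrow, beside 8.31% of all tested genes that were lower and 8.8% that were higher. At an unadjusted p under 0.05 in the limma fit, 2 members were lower and 5 higher, Tnnc1 among the latter. The share of all tested genes at that level was not counted. This count, and those at the same level for classes and lists below, therefore have no background to be read against. The groups did not overlap in 8 of the 20 (6 higher and 2 lower), which is 40% against 39.6% of all tested genes. The members' median difference was 0.35 (log2), beside 0.02 over all tested genes, and this gap was not tested. Of the tested members only Tnnc1 passed the filter through the libraries of a single genotype, which fixes its direction. Calls in either direction came to 2 of 20 members, beside 17.1% of all tested genes, so the members as a set did not stand out by calls.

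**Figure D1:**
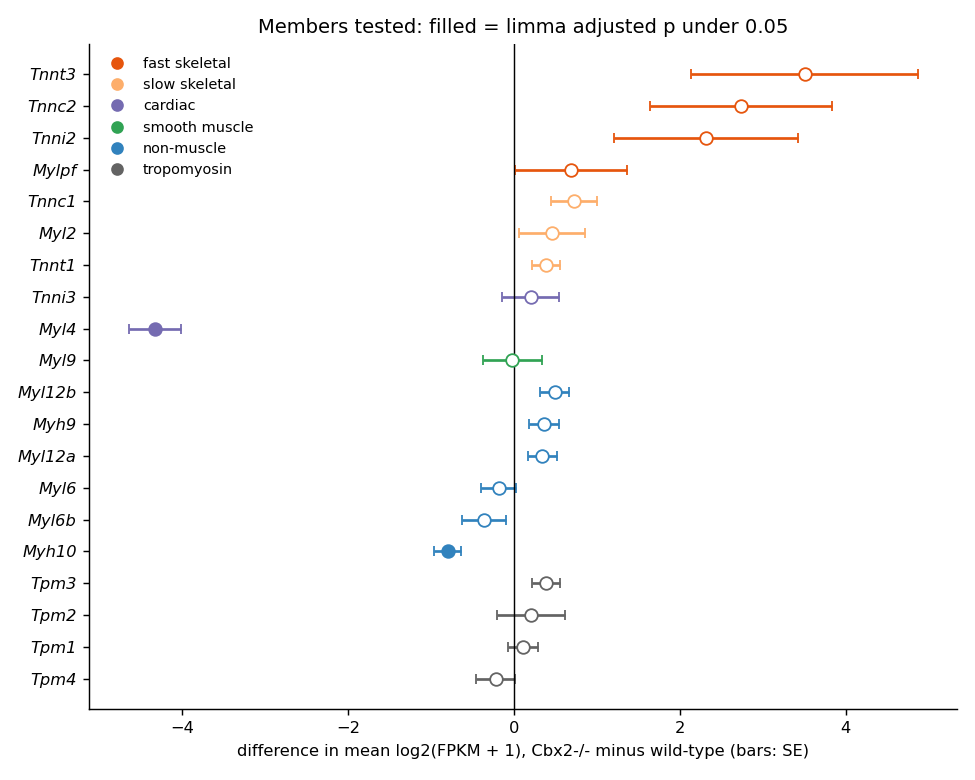
Difference in mean log2(FPKM + 1), Cbx2-/- minus wild-type (x axis), for the 20 tested members (y axis), with SE from limma as bars, coloured by class. Filled points passed the adjusted p of 0.05: Myl4 at -4.33 and Myh10 at -0.80, while the fast troponin genes at the top had large differences with wide errors.

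Promoter sequences are shown for the 4 genes on which the results turn: the fast heavy chain genes Myh4 and Myh1, whose balance differed between libraries, the fast light chain gene Mylpf, which had a level in every library, and the atrial light chain gene Myl4, which fell. They are the 250 bases before the start site, 5′ to 3′ on the gene's strand, from RefSeq (GRCm38.p6), in which 36 of the 39 members were matched by symbol. Capitals mark matches on either strand to the E-box CANNTG, to the MEF2 motif or to the CArG box of serum response factor, the last 2 searched by their degenerate consensus.
Myh4, chr11:67237562-67237811, plus strand: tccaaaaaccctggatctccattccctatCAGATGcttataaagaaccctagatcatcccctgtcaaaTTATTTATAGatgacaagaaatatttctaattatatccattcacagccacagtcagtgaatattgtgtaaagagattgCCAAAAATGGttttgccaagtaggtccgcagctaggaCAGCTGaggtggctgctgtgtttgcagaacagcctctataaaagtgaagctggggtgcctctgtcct
Myh1, chr11:67199852-67200101, plus strand: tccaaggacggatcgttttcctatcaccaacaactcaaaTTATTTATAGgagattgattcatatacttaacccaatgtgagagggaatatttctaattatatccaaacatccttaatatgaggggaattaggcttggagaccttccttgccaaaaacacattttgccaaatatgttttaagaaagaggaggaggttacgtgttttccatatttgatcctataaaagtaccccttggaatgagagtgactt
Mylpf, chr7:127211358-127211607, plus strand: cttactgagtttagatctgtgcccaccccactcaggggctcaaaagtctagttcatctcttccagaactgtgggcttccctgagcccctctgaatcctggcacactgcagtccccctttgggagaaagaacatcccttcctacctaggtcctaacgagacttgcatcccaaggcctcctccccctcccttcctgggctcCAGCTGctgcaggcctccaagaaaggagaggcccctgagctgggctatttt
Myl4, chr11:104550413-104550662, plus strand: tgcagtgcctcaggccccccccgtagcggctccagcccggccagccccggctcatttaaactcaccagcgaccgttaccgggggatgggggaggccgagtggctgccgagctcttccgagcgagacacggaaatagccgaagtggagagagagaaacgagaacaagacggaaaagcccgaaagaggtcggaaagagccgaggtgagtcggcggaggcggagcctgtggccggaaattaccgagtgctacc

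In the Myh4 and Myh1 windows 1 MEF2 match was found each, with the same letters, TTATTTATAG. Myh4 also held 1 CArG box and 2 E-boxes, and Mylpf held 1 E-box. Of all 32851 RefSeq promoter windows of this length, 66.2% held an E-box, 2.92% a MEF2 match and 1.47% a CArG box. No match to these motifs, nor GATAA, the core of the GATA motif (22.6% of windows), occurred in the Myl4 window.

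Fast skeletal genes were high in Cbx2-/- replicates 1 and 2 and at or under the wild-type range in Cbx2-/- replicate 3. Summed over the 9 fast genes, the level was 22.9, 24 and 33.6 FPKM in wild-type replicates 1 to 3 and 288, 339 and 12.1 FPKM in Cbx2-/- replicates 1 to 3. In 8 of the 9, Myh13 of the eye muscles being the exception, both Cbx2-/- replicates 1 and 2 were above the other 4 libraries. How often this occurs over all genes was not counted. Cbx2-/- replicate 3 was below the wild-type range in 4 of the 9 (Myl1, Mylpf, Tnnc2 and Tnni2) and within it in the other 5. The plot of fast skeletal genes by library shows the same split in Acta1 and Ckm.

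**Figure D2:**
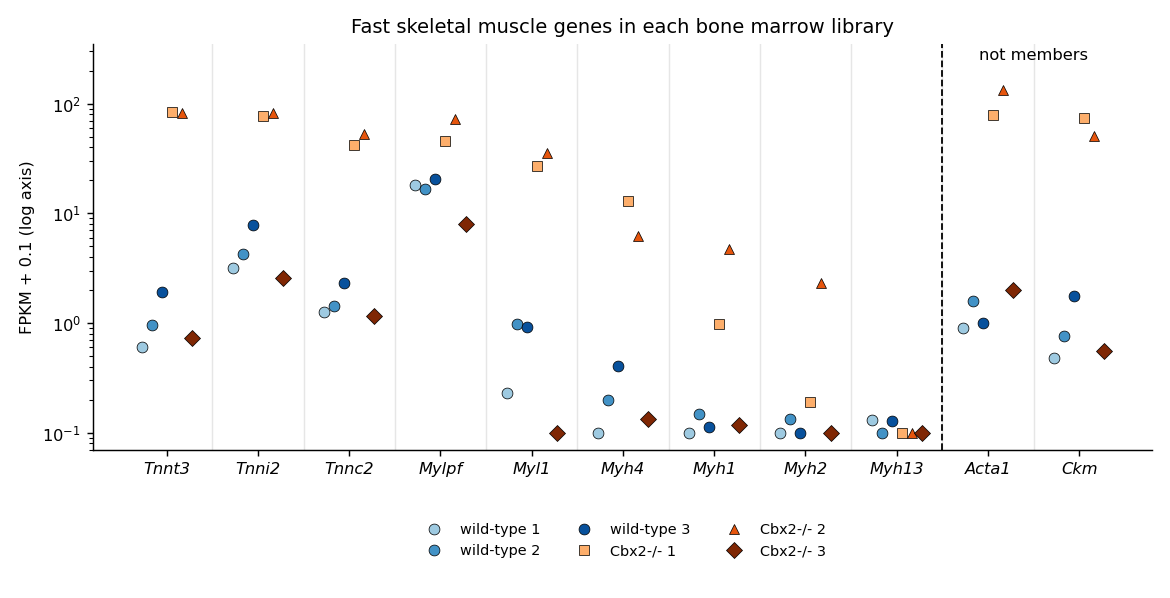
FPKM plus 0.1 on a log axis (y) of the 9 fast skeletal members and of Acta1 and Ckm, which are not members (x), with 1 point per library; circles are wild-type, and the square, triangle and diamond are Cbx2-/- replicates 1, 2 and 3. The square and triangle lie above all other points in every fast gene but Myh13. In Mylpf the wild-type libraries lie at 16.6 to 20.6 FPKM, above those of every other fast gene.

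Tnnt3 (chromosome 7, 142498836 to 142516009, plus strand), the fast troponin T that anchors the complex to tropomyosin, was at 0.509, 0.858 and 1.81 FPKM in wild-type and at 83.4, 82.4 and 0.635 FPKM in Cbx2-/- marrow. Tnni2 (chromosome 7, 142441808 to 142444410, plus strand), the inhibitory subunit, was at 3.07, 4.12 and 7.77 FPKM in wild-type and at 77.3, 82.2 and 2.49 FPKM in Cbx2-/-. Tnnc2, the calcium sensor, was at 1.17, 1.31 and 2.21 FPKM in wild-type and at 41.5, 53.2 and 1.05 FPKM in Cbx2-/-. All 3 subunits of the fast troponin complex were thus high in the same 2 libraries, and the genotypes overlapped in each.

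None of the 4 tested fast genes was called, and 2 had an unadjusted p under 0.05 by limma, a level with no background share here. The log2 differences were 3.50 ± 1.37 for Tnnt3, 2.32 ± 1.11 for Tnni2 and 2.73 ± 1.10 for Tnnc2 (SE, n = 3 each, limma adjusted p = 0.12, 0.193 and 0.129). Without Cbx2-/- replicate 3 all 3 were called higher, at 5.40, 3.83 and 4.25 (limma adjusted p = 1.33e-05, 0.000112 and 1.59e-05), and with Cbx2-/- replicates 1 and 2 left out all 3 were below 0, at -0.28, -0.70 and -0.30 (limma adjusted p = 0.518, 0.165 and 0.377). With the summed muscle markers as a covariate the differences were 0.13 for Tnnt3, -0.39 for Tnni2 and 0.03 for Tnnc2. That sum is high in Cbx2-/- replicates 1 and 2 alone. The covariate fit is therefore nearly a comparison of Cbx2-/- replicate 3 with wild-type, not a separate one. Tnnc2 overlaps Ube2c, a mitotic gene at 138 to 519 FPKM, on the other strand, and the deposited locus of Tnnt3 spans its neighbour Lsp1, a leukocyte gene at 162 to 206 FPKM. No source used here gives the strand setting of the quantification, so the low wild-type values of Tnnc2 are uncertain. Those of Tnnt3 are uncertain because its deposited locus spans Lsp1.

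The sarcomeric heavy chains showed which fibre genes were read in the 2 libraries with muscle transcripts. Summed over 10 sarcomeric Myh genes the level was 13.9 and 13.6 FPKM in Cbx2-/- replicates 1 and 2, against 0.0863 to 0.394 FPKM in wild-type libraries. It was 0.0882 FPKM in Cbx2-/- replicate 3. Myh4, the heavy chain of the fastest (IIB) fibres, was at 12.9 FPKM in Cbx2-/- replicate 1 and 6.16 FPKM in replicate 2, and took 92.4% and 45.4% of the sum. Myh1, the heavy chain of IIX fibres, was at 0.886 and 4.64 FPKM, or 6.36% and 34.2%. Myh2, of IIA fibres, was at 0.0897 and 2.24 FPKM, or 0.644% and 16.5%. The 2 libraries therefore had about the same total and a different mix, shown by single libraries with no replicate check.

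Slow and developmental heavy chains were close to 0. Myh7, the slow and ventricular chain, reached 0.0149 FPKM in Cbx2-/- replicate 1 and 0.161 FPKM in replicate 2, and was listed at 0 in the other 4 libraries. Myh8, the perinatal chain, was at 0.0125 and 0.216 FPKM there, and Myh3, the embryonic chain, at 0 and 0.014 FPKM, with both listed at 0 elsewhere. Myh1, Myh2, Myh3, Myh4, Myh8 and Myh13 lie side by side on chromosome 11, from 67078300 to 67371586, and are close in sequence, so how 50-base reads were divided among them is uncertain. With at least 1 FPKM in 2 libraries as the filter, Myh4 could be tested and was not called (difference 2.06 ± 0.82, SE, limma adjusted p = 0.127).

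**Figure D3:**
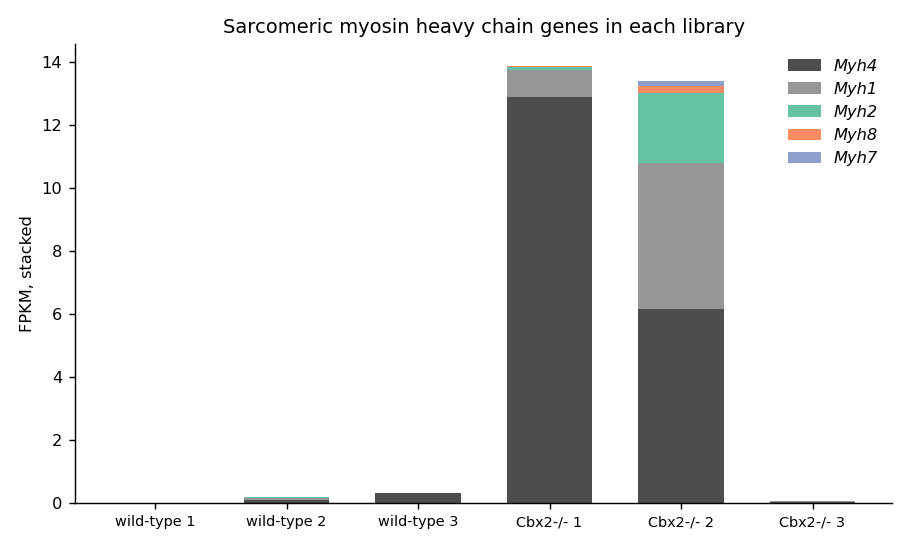
Stacked FPKM (y axis) of 5 sarcomeric myosin heavy chain genes in each of the 6 libraries (x axis). Only Cbx2-/- replicates 1 and 2 have visible bars of about equal height, and Myh4 fills 12.9 FPKM of the bar of replicate 1 but 6.16 FPKM of that of replicate 2.

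The 2 fast light chains differed in their pattern over the libraries. Myl1, the fast essential light chain, was at 0.131, 0.881 and 0.825 FPKM in wild-type and at 26.8, 35.2 and 0 FPKM in Cbx2-/- marrow, like the troponins. Mylpf (chromosome 7, 127208890 to 127214298, plus strand), the fast regulatory light chain that binds the same myosin neck, was at 18, 16.6 and 20.6 FPKM in wild-type and at 45.3, 72.8 and 7.89 FPKM in Cbx2-/-. Wild-type marrow thus had a level of Mylpf without a like level of its fibre partners.

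The ratio of Mylpf to Tnnt3 shows this per length. Wild-type libraries had 35.4, 19.4 and 11.4, Cbx2-/- replicate 3 had 12.4, and Cbx2-/- replicates 1 and 2 had 0.543 and 0.884. Over Tnnc2 the ratio was smaller in wild-type, at 15.4, 12.7 and 9.32, and 7.49, 1.09 and 1.37 in Cbx2-/- replicates 3, 1 and 2. Tnni2 over Tnnt3 was also high in wild-type, at 6.04, 4.81 and 4.29. The low wild-type values of Tnnt3 and Tnnc2 are uncertain. Over all libraries Mylpf was not called (0.69 ± 0.67, SE, limma adjusted p = 0.539). The direction depended on which Cbx2-/- libraries were used: without replicate 3 it was called higher (1.59 ± 0.20, limma adjusted p = 0.00103). With replicates 1 and 2 left out it was called lower (-1.12 ± 0.17, limma adjusted p = 0.00212), a fit that takes the spread of the wild-type libraries for the single Cbx2-/- one. With the muscle markers as a covariate the difference was -0.93 ± 0.21 (limma adjusted p = 0.00887). As the marker sum is high in Cbx2-/- replicates 1 and 2 alone, this is nearly the same comparison of Cbx2-/- replicate 3 with wild-type, not a separate one. No protein-coding gene overlaps Mylpf in GENCODE vM21. The same holds for Tnnt3, whose deposited locus nevertheless spans Lsp1, so this check does not settle the wild-type level of Mylpf.

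Slow skeletal genes were low, and 0 of the 3 tested were called by limma, with 2 at an unadjusted p under 0.05. Myl2, the slow and ventricular regulatory light chain, was at 0.669 to 1.07 FPKM in wild-type and at 1.15, 4.21 and 0.533 FPKM in Cbx2-/-, and Myl3, the matching essential chain, at 0 to 0.57 FPKM and at 0.269, 2.06 and 0.16 FPKM. Tnnc1, the slow and cardiac calcium sensor, was at 0.761, 0.631 and 0.874 FPKM in wild-type and at 1.29, 3.64 and 1.27 FPKM in Cbx2-/- (limma adjusted p = 0.115). Cbx2-/- replicate 2 was the highest library for all 3 of these genes, as it was for Myh2 and Myh7. Tnnc1 passed the filter on low values through the 3 Cbx2-/- libraries alone, which fixes both its direction and the separation of the groups, so neither is evidence of a difference. It also overlaps Nisch, at 29.1 to 47.6 FPKM, on the other strand, and its low values are uncertain for the same reason as those of Tnnc2.

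Tnnt1, the slow troponin T, had a level in every library. It was at 5.26, 4.13 and 6.64 FPKM in wild-type and at 6.83, 7.59 and 7.14 FPKM in Cbx2-/- marrow, with separate groups and no call (0.39 ± 0.17, SE, limma adjusted p = 0.15). Its level in Cbx2-/- replicate 3 lay between those of replicates 1 and 2, unlike every fast troponin gene. Tnni1, the slow inhibitory subunit it works with in muscle, stayed between 0 and 0.771 FPKM. Marrow thus had a transcript level of slow troponin T that did not follow the muscle markers.

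The one large fall among the members was Myl4 (chromosome 11, 104550663 to 104595753, plus strand), which encodes the essential light chain of atrial and embryonic muscle. It was at 78.5, 59.7 and 91.7 FPKM in wild-type and at 3.52, 4.3 and 1.29 FPKM in Cbx2-/- marrow. Every Cbx2-/- library was far below every wild-type library. The wild-type mean was 76.6 ± 16.1 FPKM and the Cbx2-/- mean 3.04 ± 1.56 FPKM (SD, n = 3 each), a 25.2-fold fall, with a log2 difference of -4.33 ± 0.32 (SE, limma adjusted p = 0.000366). The call held in all 17 alternative fits, between -5.06 and -3.97. By a two-sided exact permutation test p was 0.1, which is the lowest value possible with 3 libraries per genotype.

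The other cardiac members had no such level. Myl7, the atrial regulatory light chain that pairs with Myl4 in the heart, was listed at 0 in all 6 libraries, and Myh6, the atrial heavy chain, in 5 of 6. Tnnt2, cardiac troponin T, was at 0.0684 to 0.587 FPKM, and Tnni3, cardiac troponin I, at 0.475, 0.174 and 2.1 FPKM in wild-type and 1.37, 1.04 and 0.675 FPKM in Cbx2-/- (limma adjusted p = 0.748). Tnni3 overlaps Dnaaf3, which lies on the same strand. The 11 heart markers that are not members summed to 0.654 to 0.974 FPKM in wild-type and 1.7 to 7.33 FPKM in Cbx2-/- marrow. Single genes carried the 2 highest sums. Sln gave 5.77 FPKM in Cbx2-/- replicate 1 and was listed at 0 elsewhere, and Myoz2 gave 3.54 FPKM in Cbx2-/- replicate 2. The natriuretic peptide gene Nppb was listed at 0 throughout. Myl4 was thus read at 59.7 to 91.7 FPKM in wild-type marrow in which the defining heart genes were at or near 0.

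Markers of several marrow cell types also differed between the genotypes. The 13 erythroid markers summed to 3879.7, 3652 and 3215 FPKM in wild-type and to 1632, 1426 and 2200.3 FPKM in Cbx2-/- marrow; 11 were called lower and 0 higher, with a median difference of -1.56 (log2). The 13 early B cell markers summed to 1038, 1275 and 1305 FPKM and to 126, 114 and 222 FPKM; 13 were called lower, with a median of -2.37. The fall of Myl4 was larger than that of any of the 13 erythroid markers, the largest of which was 4.55-fold, and within the range of the early B cell markers, which reached 94.5-fold. Within a genotype the order of libraries was mixed. Cbx2-/- replicate 3 had the least Myl4 and the highest Cbx2-/- sums of both lists. Much of its erythroid sum came from Alas2, at 940, 494 and 1534 FPKM in Cbx2-/- replicates 1, 2 and 3. Its place in the erythroid order rested on that gene. Without Alas2, Cbx2-/- replicate 3 had the lowest erythroid sum of its genotype, close to replicate 1, and replicate 2 the highest, which is the order of Myl4. Wild-type replicate 3 had the most Myl4, the lowest wild-type erythroid sum and the highest wild-type early B cell sum. Of 12 osteoblast markers, 7 were called lower and 0 higher, with a median of -1.85, and of 7 tested adipocyte markers 6 were called higher and 0 lower, with a median of 2.97. Osteoblast markers summed to 10101 to 16586 FPKM in wild-type libraries and to 1888 to 3509.9 FPKM in Cbx2-/- libraries, and the 8 adipocyte markers to 218 to 423 FPKM and to 2052 to 2648 FPKM. The part of any of these cell types in the fall of Myl4 was not tested.

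**Figure D4:**
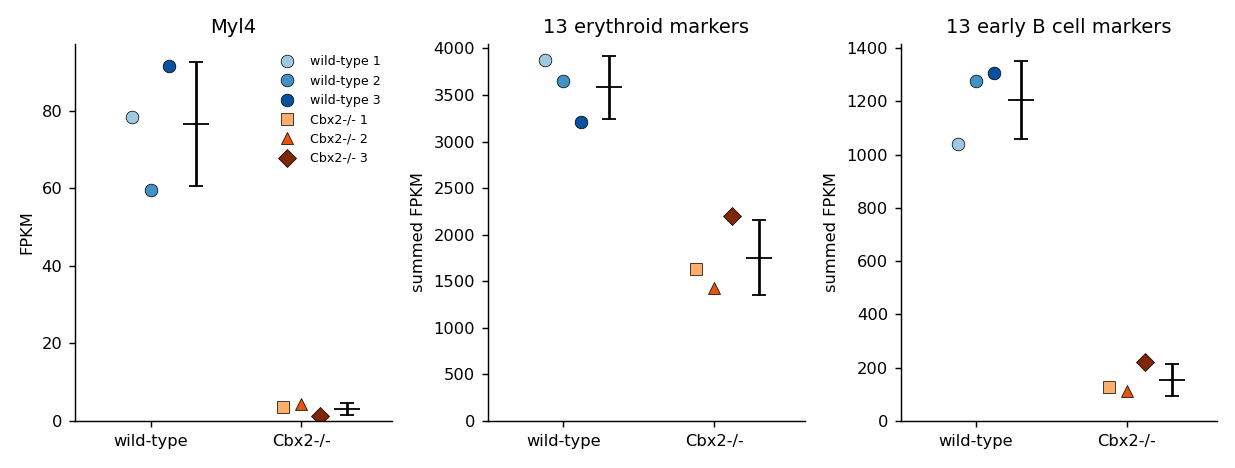
FPKM of Myl4 (left) and summed FPKM of 13 erythroid (middle) and 13 early B cell markers (right), y axes from 0, in the 3 wild-type and 3 Cbx2-/- libraries; bars give the mean and SD. Cbx2-/- replicate 3 (diamond) is the lowest library for Myl4 and the highest Cbx2-/- library for both marker sums. Alas2 alone gives 1534 FPKM of the erythroid sum there, against 940 and 494 FPKM in Cbx2-/- replicates 1 and 2. Without Alas2, Cbx2-/- replicate 3 would be the lowest of its genotype in the erythroid sum. Wild-type replicate 3 is the highest wild-type library for both Myl4 and the early B cell sum.

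Myl10, a regulatory light chain gene known from lymphocyte precursors, was low and reached 1 FPKM in only 2 libraries. It was at 0.992, 1.91 and 2.09 FPKM in wild-type and at 0, 0.614 and 0 FPKM in Cbx2-/- marrow, so the groups did not overlap. It was not tested under the filter used here. With no filter on low values the difference was -1.16 ± 0.25 (SE, limma adjusted p = 0.0375). A filter of 1 FPKM in 2 libraries let it in through wild-type libraries alone, which fixes the direction. The same was true of the filter used after scaling to a common sum.

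Smooth muscle members were carried by Myl9, the regulatory light chain of smooth muscle and platelets. Myl9 was at 111, 44.7 and 80.5 FPKM in wild-type and at 55.2, 102 and 68.1 FPKM in Cbx2-/- marrow, and the genotypes overlapped (-0.02 ± 0.35, SE, limma adjusted p = 0.977). Myh11, the smooth muscle heavy chain, stayed at 0.262 to 0.613 FPKM in 5 libraries and reached 1.33 FPKM in Cbx2-/- replicate 3. In that library the smooth muscle actin gene Acta2 was at 6.94 FPKM, against 2.06 to 3.73 FPKM elsewhere, and the 10 smooth muscle markers summed to 64.6 FPKM, against 20.9 to 44 FPKM. Of that sum 33.9 FPKM came from Tagln alone, an actin-binding protein gene, while the calponin gene Cnn1 was at 0.0396 FPKM there, its lowest value (0.489 to 0.631 FPKM in wild-type). Des and Mustn1 were highest in Cbx2-/- replicate 2. The part of these transcripts in the Myh11 value was not tested.

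Myl9 varied about as much within a genotype as between libraries of different genotype. The 12 megakaryocyte and platelet markers, which include platelet factor 4 (Pf4), summed to 2330.1, 1179 and 1564 FPKM in wild-type and to 892, 1412 and 843 FPKM in Cbx2-/- marrow. The library highest in Myl9 within each genotype, wild-type replicate 1 and Cbx2-/- replicate 2, was also the highest of its genotype in this sum. None of the 12 markers was called by limma, with 3 lower at an unadjusted p under 0.05, and their part in the variation of Myl9 was not tested.

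Non-muscle myosin genes made up most of the members' RNA. The 7 non-muscle genes summed to 1676 to 1909 FPKM in wild-type and 1664 to 1916 FPKM in Cbx2-/- marrow, and Myl6 accounted for most of it. Myl6, the essential light chain of non-muscle and smooth muscle myosin, was at 1488, 1318 and 1541 FPKM in wild-type and at 1209, 1411 and 1202 FPKM in Cbx2-/- (limma adjusted p = 0.61). Its neighbour and paralog Myl6b was at 2.04, 3.89 and 4.87 FPKM in wild-type and at 2.61, 3.13 and 1.72 FPKM in Cbx2-/- (limma adjusted p = 0.386).

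Of the 2 abundant non-muscle heavy chains, only the less abundant was called. Myh10 (chromosome 11, 68691559 to 68816632, plus strand), the heavy chain of non-muscle myosin IIB, was at 10.4, 11.2 and 10.5 FPKM in wild-type and at 5.31, 7.43 and 4.7 FPKM in Cbx2-/- marrow, and the groups did not overlap. It fell by 0.80 ± 0.17 on the log2 scale (SE, n = 3 each, limma adjusted p = 0.0161), 1.84-fold. The call was lost on leaving out Cbx2-/- replicate 1 or any wild-type replicate (limma adjusted p = 0.0623 to 0.0729). The difference itself stayed between -0.82 and -0.76 in those 4 fits.

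Myh9, the heavy chain of non-muscle myosin IIA and the main myosin of leukocytes and platelets, was not called. It was at 97.3, 93.8 and 98.9 FPKM in wild-type and at 116, 108 and 152 FPKM in Cbx2-/- marrow, with separate groups (0.36 ± 0.18, SE, limma adjusted p = 0.217). With Cbx2-/- replicates 1 and 2 left out it was called higher (0.65, limma adjusted p = 0.011), which sets 1 Cbx2-/- library, the highest of all 6, against the spread of the wild-type ones. It was also called higher with array weights (0.26, limma adjusted p = 0.0448) and with the muscle markers as a covariate (0.61). The covariate fit is nearly the same comparison of Cbx2-/- replicate 3 with wild-type. The ratio of Myh9 to Myh10 was 8.35 to 9.45 in wild-type marrow and 21.9, 14.5 and 32.4 in Cbx2-/- marrow. Myh14, the third non-muscle heavy chain, stayed at or under 0.158 FPKM.

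The non-muscle regulatory light chains, whose phosphorylation turns these motors on, were higher in all 3 Cbx2-/- libraries without reaching the threshold. Myl12b was at 167, 164 and 183 FPKM in wild-type and at 242, 270.1 and 215 FPKM in Cbx2-/- (0.49 ± 0.17, SE, limma adjusted p = 0.0929). Myl12a was at 85.9, 84 and 71.4 FPKM and at 103, 116 and 88.4 FPKM (limma adjusted p = 0.223). These are neighbours on chromosome 17 with similar sequences, which makes the split of reads between them uncertain. Their ratio, Myl12b over Myl12a, was 1.94 to 2.56 in wild-type and 2.33 to 2.43 in Cbx2-/-. Both were called higher without Cbx2-/- replicate 3 (limma adjusted p = 0.00912 and 0.0347), and Myl12b also after scaling to a common sum (limma adjusted p = 0.0353). With array weights Myl12b and Myl12a were called higher too (limma adjusted p = 0.00241 and 0.0182). The 9 neutrophil markers summed to 12368, 10170.3 and 11101 FPKM in wild-type and to 20402, 24420.4 and 15408 FPKM in Cbx2-/- marrow, with 4 of 9 called higher and 0 lower. Their part in the values of Myh9, Myl12a and Myl12b was not tested.

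**Figure D5:**
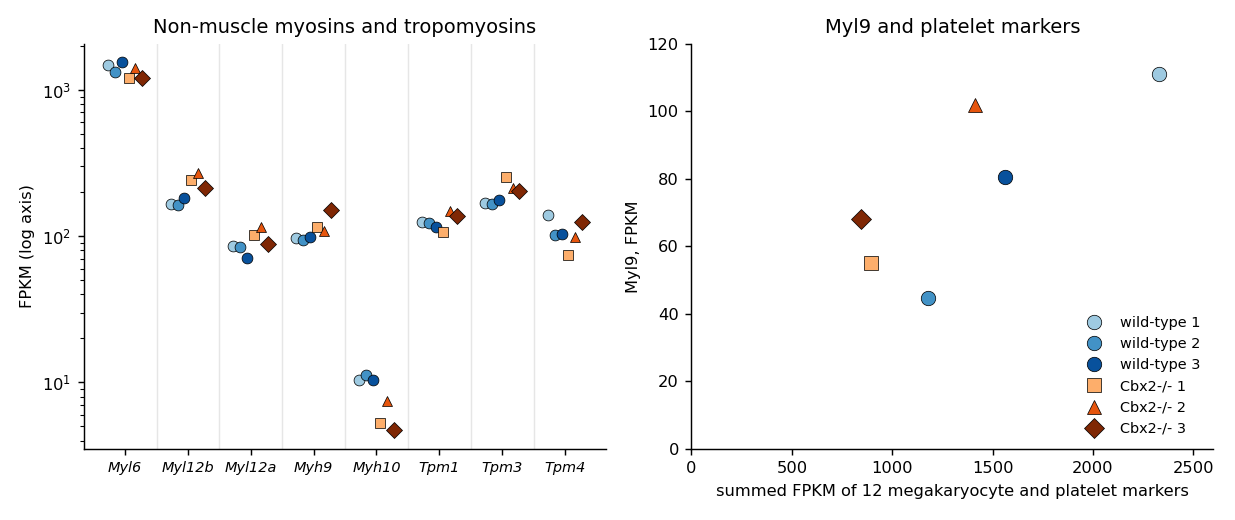
Left, FPKM on a log axis (y) of 5 non-muscle myosin genes and 3 tropomyosin genes (x), 1 point per library; right, Myl9 FPKM (y) against the summed FPKM of 12 megakaryocyte and platelet markers (x). Myh10 is the only gene on the left with all 3 Cbx2-/- points below the wild-type points, and on the right the libraries of both genotypes are mixed.

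Tropomyosins, which lie along actin filaments and are spliced into muscle and non-muscle forms that a gene-level table cannot separate, were abundant in both genotypes. The 4 genes summed to 398 to 453 FPKM in wild-type and 449 to 492 FPKM in Cbx2-/- marrow, and 0 of 4 were called by limma (0 at an unadjusted p under 0.05). Tpm3 was at 167, 165 and 177 FPKM in wild-type and at 253, 214 and 202 FPKM in Cbx2-/-, with separate groups (0.39 ± 0.17, SE, limma adjusted p = 0.165). It was called higher without Cbx2-/- replicate 3 (0.45, limma adjusted p = 0.0255) and with array weights (0.55, limma adjusted p = 0.00213). Tpm1 was at 125, 123 and 115 FPKM in wild-type and at 107, 149 and 137 FPKM in Cbx2-/- (limma adjusted p = 0.741). Tpm4, a main short tropomyosin of platelets, was at 139.8, 102 and 103 FPKM and at 74.7, 98.2 and 125 FPKM (limma adjusted p = 0.575). Tpm2, known from slow and smooth muscle, was at 20.6, 8.78 and 15.4 FPKM in wild-type and at 13.5, 30.6 and 10.6 FPKM in Cbx2-/- (limma adjusted p = 0.782). The library order of Tpm2 within each genotype was that of Myl9 at its top: wild-type replicate 1 and Cbx2-/- replicate 2 were the highest for both.

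Genes that work with the members changed in a few places. Of 6 actin genes, 4 were tested and 0 called by limma (1, Acta1, at an unadjusted p under 0.05), with a median of 0.23 (log2). The cytoplasmic actins Actb and Actg1 were at 1536 to 2358 FPKM and 937 to 1130.3 FPKM over the 6 libraries. Of 14 genes that cap thin filaments or fold and bind myosin, 5 were tested, 1 was called higher and 1 lower. Tmod1, the tropomodulin that caps actin protofilaments in red cells and muscle, fell from 31.7 ± 3.69 to 10.7 ± 1.13 FPKM (SD, n = 3 each, limma adjusted p = 0.0012). Unc45b, a myosin chaperone of striated muscle, had a wild-type mean of 0.705 ± 0.203 FPKM and a Cbx2-/- mean of 2.06 ± 0.528 FPKM (SD, n = 3 each, limma adjusted p = 0.0169). It too passed the filter through the Cbx2-/- libraries alone, which fixes its direction, and it was at 2.12 FPKM in Cbx2-/- replicate 3, in which the muscle markers were low.

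Of 11 genes of light chain phosphorylation, 9 were tested and 1 was called. Mylk3, a myosin light chain kinase known from heart, was at 24.1, 24 and 16.1 FPKM in wild-type and at 11, 14.8 and 12.5 FPKM in Cbx2-/- marrow (adjusted p = 0.0464 by limma). Mylk, the kinase of smooth muscle and non-muscle cells, was at 4.99 to 7.2 FPKM over all libraries (limma adjusted p = 0.709), and Mylk2, the skeletal muscle kinase, reached 1.9 FPKM in Cbx2-/- replicate 1 and 1.05 FPKM in replicate 2, with at most 0.0684 FPKM elsewhere. Among 6 myogenic factors and satellite cell genes, only Mef2c was tested. This MEF2 factor gene, also active in B cells and myeloid cells, fell from 7.72 ± 0.59 to 4.48 ± 0.584 FPKM (SD, n = 3 each, limma adjusted p = 0.0143).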

How the data were processed

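Bone marrow RNA of 3 wild-type and 3 Cbx2-/- mice was measured by stranded poly(A) RNA sequencing with 50-base single-end reads, per the labels' protocols. The authors deposited 1 table of FPKM values per gene; per the submitters' processing notes, FastQC 0.11.5, TopHat2 2.1.0, Cufflinks 2.2.1 and mm10 were used, without roles or settings. FPKM is relative to all mapped fragments, so 1 very abundant transcript lowers the others. Depth is unknown, so no counting interval can be given, and the p-values measure the spread between these 3 animals per group.

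Values were analysed as log2(FPKM + 1) with limma 3.58.1 in R 4.3.3 (trend, two-sided, no block or covariate), on genes that reached 1 FPKM in 3 or more of 6 libraries; the fit was tested on simulated data. Every tested member is named, members under the filter with values where a library reached 1 FPKM, and of other genes Cbx2, some actins and Ckm, and up to 4 of each list by adjusted p. Nppb, Sln, Myoz2, Alas2, Cnn1, Des, Mylk, Mylk2, Myod1, Myog, Myf5, Myf6, Ube2c, Lsp1, Nisch and Dnaaf3 fall outside that rule and were chosen after their values were seen. The members and lists were chosen with earlier results of these data known. Alternatives were 17 other fits. Positions are from GENCODE vM21 (GRCm38), counted from 1, and Myl12b had no single entry there. Figures were drawn with matplotlib 3.10.9.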

Additional observations from a re-analysis of the deposited data

How the results depend on the processing

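Myl4 was called lower in every alternative fit, and Myh10 in all but those without Cbx2-/- replicate 1 or a wild-type replicate. Which members were called higher depended on the Cbx2-/- libraries used, on array weights, on the covariate and on scaling. Members called higher were 0 over all libraries, 9 with array weights, 1 after scaling to a common sum (TPM), 1 with the muscle marker covariate and 1 with Cbx2-/- replicates 1 and 2 left out. Members called lower were 2 over all libraries and 3 in each of these 4 fits, with Tpm4, Myl10, Mylpf and Mylpf added in that order. The fit scaled to a common sum applied the filter of 1 to the scaled values, with 12560 genes tested. Myl10 entered that fit through wild-type libraries alone, which fixes its direction. Array weights also called Tnnt1 higher (0.34, limma adjusted p = 0.0437), with Tpm4 lower (-0.56, limma adjusted p = 0.0114). Leaving out 1 library gave 0 to 8 higher (8 without Cbx2-/- replicate 3) and 1 to 2 lower. All genes called higher and lower were 1057 and 998, then 3278 and 2684 with array weights, 2178 and 2757 with the covariate, 2047 and 2714 with Cbx2-/- replicates 1 and 2 left out, and 367 to 2069 and 475 to 1719 on leaving out 1 library, with the fewest called higher without wild-type replicate 3, the fewest lower without wild-type replicate 1 and the most of both without Cbx2-/- replicate 3. The other pseudocounts, filters, scaling by median ratios and the fit with no trend gave 0 members higher and 2 to 3 lower.

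With the replicate number as a block, all genes called higher were 634 and lower 734, and members were 0 and 2. Same-numbered libraries of the genotypes did not deviate together (correlations 0.19, -0.18 and -0.10), so the numbers were not taken to pair animals.

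Signs turned for members that were not called: with the covariate Myl2 (-0.23), Mylpf (-0.93, then called), Tnni2 (-0.39), Tnni3 (-0.087), Tpm2 (-0.33) and Tpm4 (0.10); with Cbx2-/- replicates 1 and 2 left out Myl2 (-0.29), Mylpf (-1.12, then called), Tnnc2 (-0.30), Tnni2 (-0.70), Tnni3 (-0.064), Tnnt3 (-0.28), Tpm2 (-0.38) and Tpm4 (0.14); with array weights Tpm1 (-0.12); and with scaling to a common sum Myl9 (0.0043). On leaving out 1 library, Myl9 ranged from -0.38 to 0.27, Tnni3 from -0.090 to 0.61, Tpm2 from -0.22 to 0.50 and Myl2 from -0.048 to 0.83. The cause was not tested. Total reads are unknown, so values under 1 FPKM carry no stated precision.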
